A study of Nicotiana benthamiana with 12 samples.

Results

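The probes described here were those that lay lowest in line L2 relative to the wild type (WT) in both growth conditions, on a tobacco microarray of 43759 probes. L2 is a single transgenic line of Nicotiana benthamiana that carries CbFAD3, a microsomal omega-3 desaturase gene of the alpine plant Chorispora bungeana, under the constitutive CaMV 35S promoter. Leaves of seedlings 2 weeks old, raised at 25 °C on days of 16 h light and 8 h dark, were taken from 4 groups of 3 arrays each, which were L2 after 6 h in 200 mM NaCl, L2 under normal conditions, WT after the same salt treatment and WT under normal conditions. Each array received RNA pooled from several plants, given as 3 in the sample labels and as 5 in the description of the series. The arrays carry Nicotiana tabacum sequences, so that N. benthamiana RNA was measured on probes of a related species.

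The members were selected on the values of L2 and WT themselves. A probe was eligible when its signal was well above background on all 6 WT arrays, as Agilent's software flags it. Of the 22840 such probes, 40 in a block of spots at 1 edge of the array were left out, as were 10 that the study annotates as APS reductase-like or as the plastid genes Ycf2, Ycf3, matK and NAD(P)H dehydrogenase, and 22790 remained. For each, the margin was the lowest of the 6 WT values minus the highest of the 6 L2 values, on the log2 scale after subtraction of the 75th percentile of the array. The 100 probes with the largest margin were taken. The margin and all differences between L2 and WT therefore describe the choice, and no test of them is given.

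Omega-3 desaturases of the FAD3 type sit in the endoplasmic reticulum of plant cells and insert a further double bond into linoleic acid, which yields linolenic acid. Linolenic acid is a main fatty acid of plant membranes, whose fluidity depends on the degree of unsaturation, and it is also the precursor of jasmonates, hormones of wounding and defence. Salt stress imposes osmotic and ionic stress on leaves and changes the transcript levels of many genes within hours. The members are identified by a probe name and by the accession of the transcript, EST or assembly from which the probe was designed. No gene descriptions were used with them, since the scanner values hold accessions without names and none of the members was among the annotated probes of the study. Gene functions, leaf marker genes and the CbFAD3 transcript were therefore not examined here.

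The name "lower in L2 in both conditions" held in the strict sense for 14 of the 100 members, whose 6 L2 values all lay below their 6 WT values. These 14 were 0.0614% of the eligible probes. The margins ran from 0.16 for the first member to -0.14 for the last on the log2 scale, so that the L2 and WT values of the other 86 overlapped. The overlap was less than 0.1 for 36 members and 0.1 or more for 50. The count of 14 was 9 with quantile normalization and 8 with the 75th percentile over probes detected on every array. It was 7 with median scaling and 6 with a normexp background. Over all eligible probes the counts were 10, 8, 8 and 6 in the same order. Leaving out an array cannot lower the count, and without L2 normal replicate 1 it was 24. In that case 84 eligible probes, or 0.369%, had no overlap. In the opposite direction, 14 eligible probes had all 6 L2 values above all 6 WT values, and their highest margin was 1.18. Their count was 16 with quantile normalization, 16 with the 75th percentile over probes detected on every array, 23 with median scaling and 19 with a normexp background. The widest gap among probes lower in L2 was thus narrow beside the widest among probes higher in L2.

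**Figure D1:**
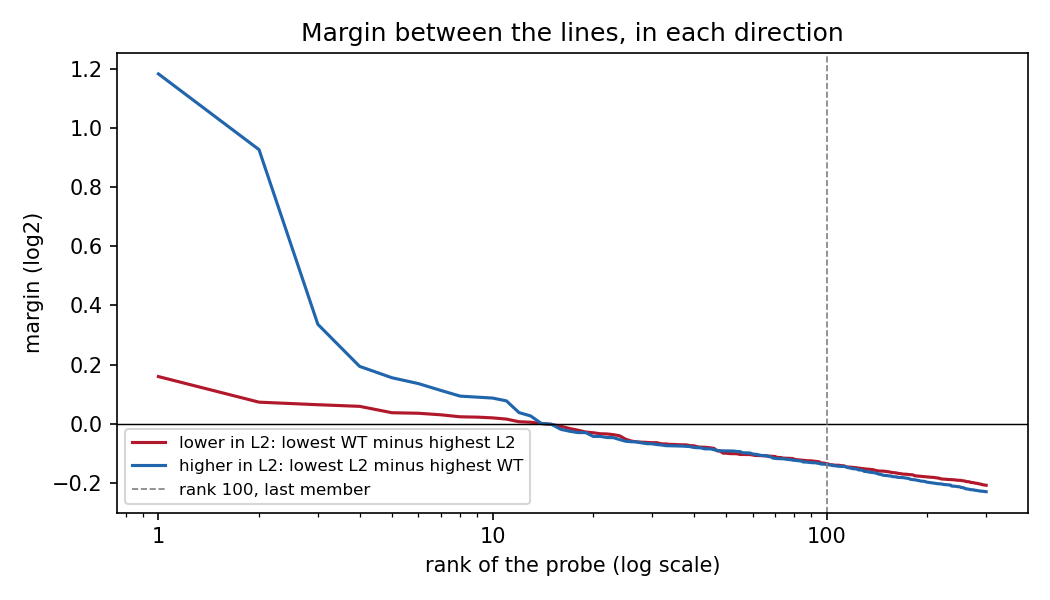
The vertical axis gives the margin between the lines on the log2 scale and the horizontal axis the rank of the probe on a log scale, for probes lower in L2 (red) and higher in L2 (blue). Both curves cross 0 after rank 14, but the blue one starts at 1.18 and the red one at 0.16; the dashed line marks rank 100.

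By mean values the members were less mixed. The L2 mean was below the WT mean in 98 members under salt stress and in 96 under normal conditions, against 44.4% and 61.0% of the eligible probes. Both means were lower in 94 members, against 22% of the eligible probes. The 3 L2 values lay below the 3 WT values in 53 members under salt stress, where 5.34% of the eligible probes had this pattern, and in 52 under normal conditions, where 12.2% had it. Since the rule used these values, the counts show what it picked and nothing more.

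The differences were small. Under salt stress the median difference, L2 minus WT, was -0.28 on the log2 scale over the members and 0.03 over the eligible probes. Under normal conditions it was -0.25 over the members and -0.12 over the eligible probes. With the 75th percentile over probes detected on every array the normal median of the members was -0.11, within slide 1 it was -0.13, and with a normexp background the salt median was -0.18. As measured, single members ranged between -2.80 and 0.05 under salt stress and between -1.26 and 0.04 under normal conditions. By the measured means, 4 members were more than 2-fold lower in L2 under salt stress, against 1.37% of the eligible probes, and 3 under normal conditions, against 1.02%. Lower by more than 1.5-fold in both conditions were 3 members, against 0.47%. Where L2 was not well above background on any salt array, only a bound on the difference was measured, and with such bounds the counts were 2 members over 2-fold under salt stress and 2 over 1.5-fold in both conditions. These were A_95_P281833 and A_95_P301998 in each case. The normal counts include A_95_P281833 and A_95_P227589, whose signal was not well above background on L2 normal replicate 2. No bound was set for that array.

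**Figure D2:**
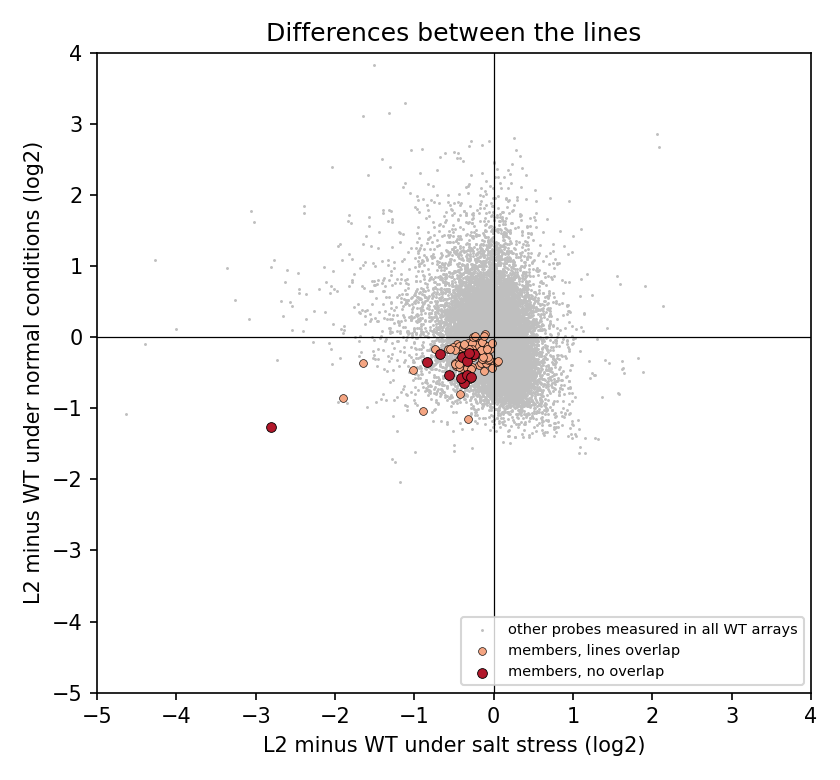
Each point is a probe, placed by the difference L2 minus WT under salt stress (horizontal, log2) and under normal conditions (vertical, log2). Of the members, without overlap (dark red) or with it (orange), 94 lie in the lower left of the plot, over the other eligible probes (grey), most of them less than 1 unit from 0 on both axes.

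The first 12 members by margin are given with all their values, on the log2 scale relative to the 75th percentile of each array. A_95_P259811, designed on accession AB110955, had the widest margin. Its values were 0.47, 0.44 and -0.03 in L2 under salt stress and 0.44, 0.32 and -0.17 in L2 under normal conditions, against 0.63, 0.65 and 0.68 in WT under salt stress and 0.68, 0.82 and 0.75 in WT under normal conditions. The WT arrays lay close together, and replicate 3 of L2 was the lowest in each condition. The L2 minus WT difference was -0.36 under salt stress and -0.55 under normal conditions.

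A_95_P094898, on accession BP532926, had values of -1.01, -1.04 and -1.31 in L2 under salt stress and -0.89, -0.87 and -1.61 in L2 under normal conditions, against -0.80, -0.80 and -0.63 in WT under salt stress and -0.49, -0.41 and -0.55 in WT under normal conditions. Replicate 3 of L2 was again the lowest in each condition, and the gap between the lines was wider under normal conditions, at -0.64, than under salt stress, at -0.37. This difference between the conditions did not pass the test, with an adjusted p of 0.602 from limma.

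A_95_P261576, on accession FG155569, was dim on every array. It had -4.80, -4.52 and -4.49 in L2 under salt stress and -4.58, -4.69 and -4.88 in L2 under normal conditions, against -4.28, -3.89 and -4.43 in WT under salt stress and -4.03, -4.14 and -4.23 in WT under normal conditions. Its signal was not well above background on any of the 3 L2 arrays under salt stress, and the detection limit there lay above the WT mean, so no fold is given for that condition.

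A_95_P006606, on the transcript assembly TA19444_4097, was also dim. It had -4.27, -4.60 and -4.22 in L2 under salt stress and -4.30, -4.30 and -4.13 in L2 under normal conditions, against -3.88, -3.29 and -3.91 in WT under salt stress and -3.97, -4.07 and -4.00 in WT under normal conditions. None of the 3 L2 arrays under salt stress was well above background, and the bound was at least 1.20-fold lower in L2. Such a bound sets the mean of WT against the lowest signal called well above background on each L2 array.

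A_95_P266966, on accession DV157625, had values of -2.21, -2.15 and -2.54 in L2 under salt stress and -2.20, -2.32 and -2.18 in L2 under normal conditions, against -1.98, -2.11 and -1.98 in WT under salt stress and -1.89, -2.07 and -2.05 in WT under normal conditions. The 2 lines were separated by 0.04, and the difference of the means was -0.27 under salt stress and -0.23 under normal conditions.

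A_95_P080735, on accession BP528082, had values of -4.11, -3.97 and -3.99 in L2 under salt stress and -3.74, -3.95 and -3.83 in L2 under normal conditions, against -3.47, -3.19 and -3.70 in WT under salt stress and -3.38, -3.19 and -3.33 in WT under normal conditions. The difference was nearly the same in both conditions, at -0.57 under salt stress and -0.54 under normal conditions. The signal was well above background on 1 of the 3 L2 arrays under salt stress.

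A_95_P281833, on accession AM814343, had the largest mean difference of all members under normal conditions. It had -4.71, -5.72 and -5.22 in L2 under salt stress and -3.93, -4.77 and -5.31 in L2 under normal conditions, against -1.51, -3.77 and -1.95 in WT under salt stress and -3.90, -3.26 and -3.08 in WT under normal conditions. The replicates were widely spread in both lines, with an SD of 1.19 in WT under salt stress, and the first normal replicates of L2 and WT were almost equal. The difference was -2.80 under salt stress and -1.26 under normal conditions, where L2 replicate 2 was not well above background. Since no L2 array under salt stress was well above background, the measured bound there was at least 2.91-fold lower in L2, or 1.54 on the log2 scale.

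A_95_P031641, on the assembly TA20223_4097, had values of -2.39, -2.23 and -2.24 in L2 under salt stress and -2.26, -2.11 and -2.19 in L2 under normal conditions, against -2.09, -2.04 and -1.99 in WT under salt stress and -2.03, -1.75 and -2.06 in WT under normal conditions. All 12 values lay in a narrow range, and the differences were -0.25 under salt stress and -0.24 under normal conditions.

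A_95_P316638, on accession FG201209, had values of -2.10, -2.09 and -1.89 in L2 under salt stress and -1.49, -2.22 and -1.69 in L2 under normal conditions, against -1.39, -1.09 and -1.09 in WT under salt stress and -1.42, -1.46 and -1.47 in WT under normal conditions. Under salt stress the lines lay well apart, at -0.84, while under normal conditions the first L2 replicate lay just below the WT arrays and the difference was -0.35. The difference between the conditions did not pass the test, with an adjusted p of 0.335 from limma.

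A_95_P111588, on accession AF194945, was a bright probe. It had 2.51, 2.56 and 2.82 in L2 under salt stress and 2.93, 2.86 and 2.66 in L2 under normal conditions, against 2.98, 3.09 and 3.03 in WT under salt stress and 2.95, 3.21 and 3.11 in WT under normal conditions. The highest L2 value was within 0.02 of the lowest WT value, both under normal conditions.

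A_95_P031066, on the assembly TA18216_4097, had values of -2.36, -2.64 and -2.41 in L2 under salt stress and -2.49, -2.92 and -2.47 in L2 under normal conditions, against -2.06, -2.31 and -2.05 in WT under salt stress and -2.30, -2.24 and -2.34 in WT under normal conditions. The difference was -0.33 in each condition, and replicate 2 of L2 was the lowest in both.

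A_95_P230964, on accession FG643198, had values of 1.39, 1.08 and 1.30 in L2 under salt stress and 1.45, 1.27 and 0.84 in L2 under normal conditions, against 1.61, 1.46 and 1.73 in WT under salt stress and 1.67, 1.59 and 1.91 in WT under normal conditions. The difference was -0.34 under salt stress and -0.54 under normal conditions. The remaining members without overlap were A_95_P118547 on DV161650, with a margin of 0.005, and A_95_P191452 on TA15240_4097, with a margin of 0.001.

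**Figure D3:**
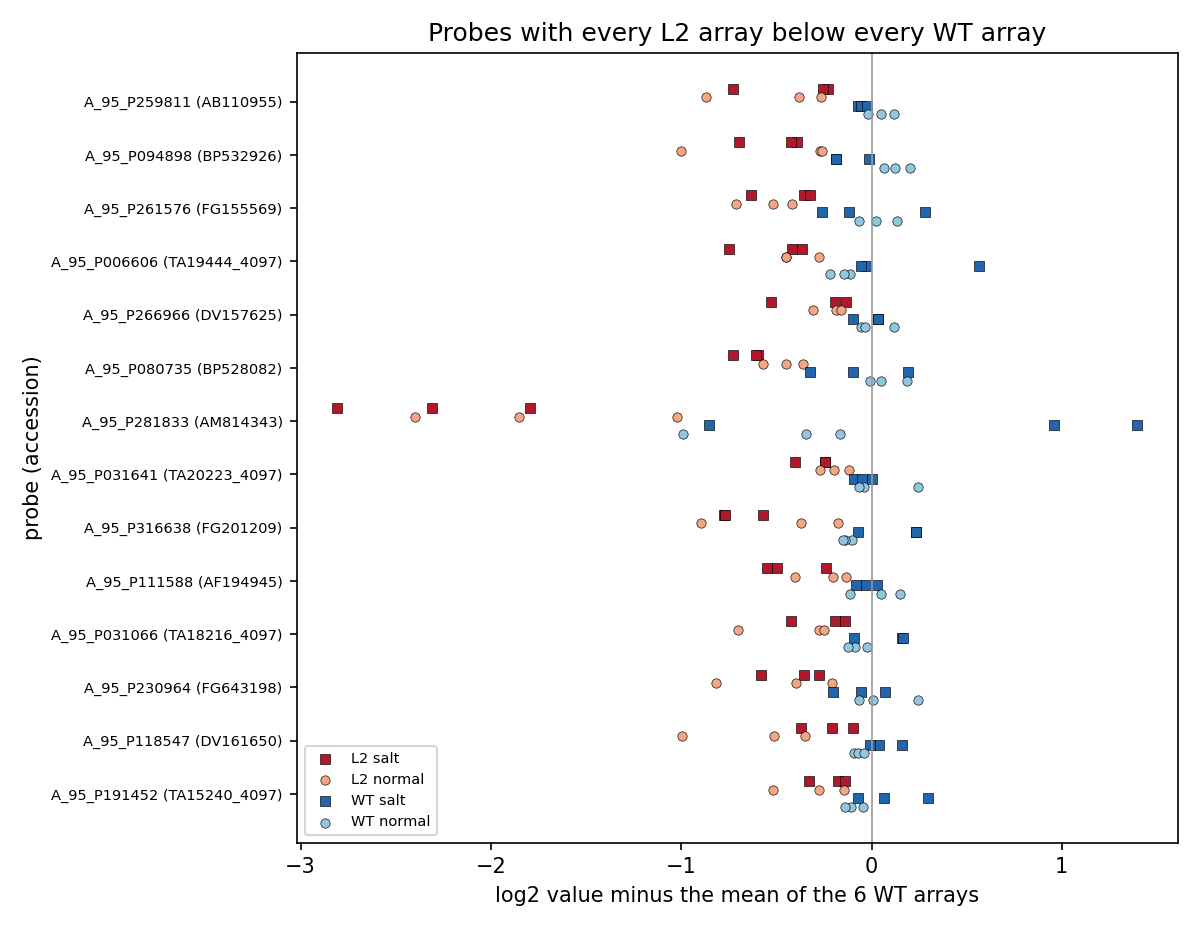
The 14 members without overlap are listed from the widest margin at the top, and the horizontal axis gives the log2 value minus the mean of the 6 WT arrays. Red and orange points are L2 and blue points WT, squares are salt stress and circles normal conditions; only A_95_P281833 spreads over more than 2 units.

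The 5 members with the largest difference of the measured means in each condition were mostly dim and mostly overlapping probes. A_95_P301998, on accession FG636040, differed by -1.90 under salt stress and by -0.85 under normal conditions. Its values were -3.40, -2.93 and -3.93 in L2 under salt stress and -2.81, -3.98 and -2.93 in L2 under normal conditions, against -1.47, -0.94 and -2.14 in WT under salt stress and -2.88, -1.74 and -2.57 in WT under normal conditions. Under salt stress the lines did not overlap, whereas under normal conditions the lowest WT value lay below the highest L2 value. Since only a bound was measured for A_95_P281833, the order of these members under salt stress is not settled.

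A_95_P260156, on accession FG201232, differed by -1.64 under salt stress, where its bound was at least 1.60-fold lower in L2, and by -0.37 under normal conditions. It had -5.55, -4.84 and -4.38 in L2 under salt stress and -4.55, -4.87 and -4.14 in L2 under normal conditions, against -3.42, -3.30 and -3.12 in WT under salt stress and -4.21, -4.18 and -4.07 in WT under normal conditions. No L2 array under salt stress was well above background for this probe.

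A_95_P157012, on accession FG172647, differed by -1.02 under salt stress. Its WT mean was below the detection limit of the L2 arrays, and no fold is given. A_95_P227589, on accession GT271447, differed by -0.89 under salt stress, with a bound of at least 1.28-fold lower in L2, and by -1.04 under normal conditions. Its second L2 array under normal conditions, at -6.06, was far below the other L2 arrays, at -4.51 and -4.67. These members and A_95_P261576, A_95_P006606, A_95_P281833 and A_95_P260156 made up the 6 without a signal well above background on any of the L2 salt arrays, and no member was so under normal conditions.

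A_95_P136362, on accession FG174251, was well above background on all arrays. It had 1.34, 1.13 and 1.04 in L2 under salt stress and 1.29, 1.24 and 0.28 in L2 under normal conditions, against 1.497, 1.21 and 1.78 in WT under salt stress and 2.12, 2.00 and 2.12 in WT under normal conditions. The lines were clearly apart under normal conditions, by -1.14, and overlapped under salt stress, where the difference was -0.33. A_95_P296848, on accession FG140187, differed by -0.80 under normal conditions and by -0.42 under salt stress, and its lines overlapped by less than 0.01.

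The 100 members carried 99 accessions. FG643198 was the only one carried by more than 1 member, namely A_95_P230964 and A_95_P115302. The second probe had 1.06, 1.11 and 1.01 in L2 under salt stress and 0.95, 1.04 and 0.56 in L2 under normal conditions, against 1.19, 1.09 and 1.45 in WT under salt stress and 1.13, 1.103 and 1.48 in WT under normal conditions. Both probes were lowest in L2 normal replicate 3, and they are counted as separate members although they may read the same transcript.

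Another 12 probes of the array, none of them members, shared an accession with 11 members. They give a second reading of the same sequence entry that the rule did not select. The mean over both conditions was lower in L2 in 10 of the 12, against 59.7% of the eligible probes, and both conditions were lower in 5 of the 12, against 22% of the eligible probes. None had a margin above 0. A_95_P217392 shares AF194945 with A_95_P111588. Its difference was 0.02 under salt stress and -0.65 under normal conditions, while the member had -0.40 and -0.27 in the same order, so the probes of this accession differed in the condition that carried the difference. A_95_P207377 shares FG172968 with A_95_P255614, and the differences were -0.16 and -0.28 under salt stress and -0.21 and -0.16 under normal conditions. A_95_P223472 shares GT271447 with A_95_P227589 and had 0.39 under normal conditions, where the member had -1.04. A_95_P106457 shares FG644682 with A_95_P286208 and was higher in L2, by 0.24 over both conditions. The other shared accessions were TA15945_4097, AY971376, FG638711, TA12574_4097, DW004209, FG139517 and EB677527, the last with 2 further probes. All these probes measure the same 12 RNA samples, so an agreement between them shows how well probes match and adds no replicates.

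**Figure D4:**
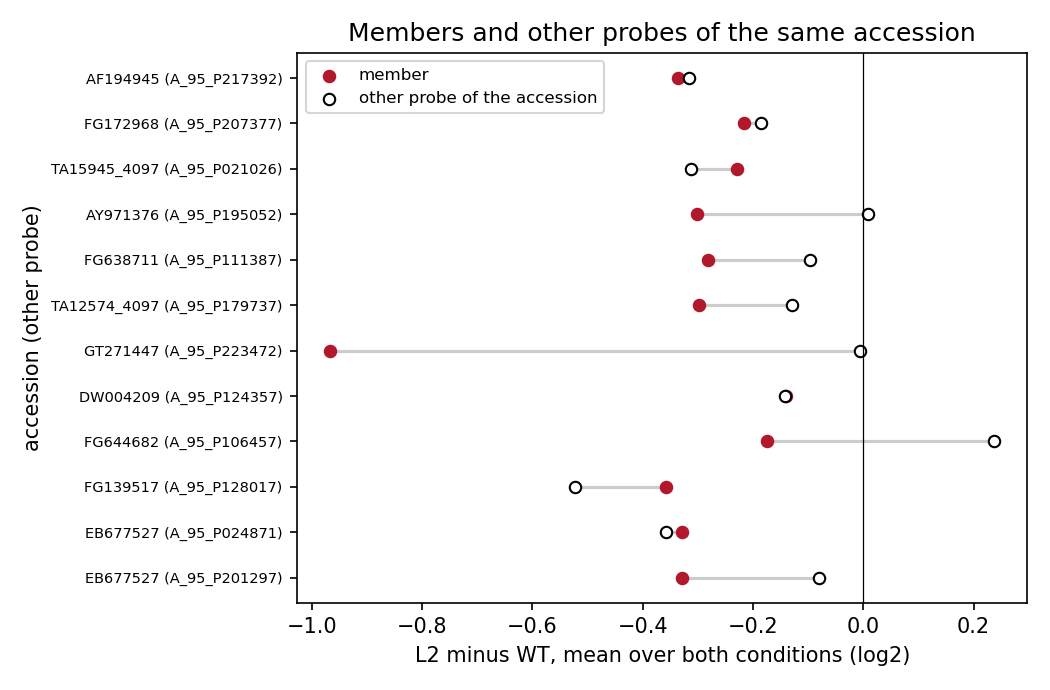
For each accession the filled point is the member and the open point another probe of the same accession, placed by the difference L2 minus WT averaged over both conditions (log2). Open points lie left of 0 in 10 of 12 cases, and the widest disagreement is that of GT271447.

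The 6 L2 arrays did not contribute equally. The median member lay 0.14 to 0.31 below the WT mean on each L2 array on the log2 scale, namely at -0.19, -0.27 and -0.31 under salt stress and at -0.14, -0.26 and -0.28 under normal conditions. On the WT arrays it lay between -0.03 and 0.00. The median eligible probe also varied between the L2 arrays. It lay at 0.04, -0.03 and -0.09 under salt stress and at 0.09, -0.08 and -0.14 under normal conditions. Part of the order of the L2 arrays was thus shared by all eligible probes. L2 normal replicate 1 was the highest L2 array in 35 members, while the others were so in 10 to 16. L2 normal replicate 3 was the lowest of all 12 arrays in 29 members, but it was also the lowest in 22.5% of the eligible probes. WT salt replicate 2 was the lowest WT array in 26 members.

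The arrays were hybridised on 3 slides of 4 arrays. Slide 1 held the 3 WT arrays and 1 L2 array of normal conditions, slide 2 held 2 L2 arrays of normal conditions and 2 WT arrays of salt stress, and slide 3 held the 3 L2 arrays and 1 WT array of salt stress. Slide and group were thus partly confounded, and only slides 1 and 3 allowed L2 and WT of the same condition to be compared within a slide. Within slide 3 the median member differed by -0.32, against 0.03 over the eligible probes, and 95 members were lower in L2, against 45.9% of the eligible probes. Within slide 1 the median member differed by -0.13, against 0.03 over the eligible probes, and 87 members were lower in L2, against 45.0%. Both slides showed the lower L2 mean in 82 members, against 21.5% of the eligible probes. For the 14 members without overlap a lower L2 mean on both slides was certain from their definition. The slide values come from the same arrays that chose the members, with a single L2 array on slide 1 and a single WT array on slide 3.

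**Figure D5:**
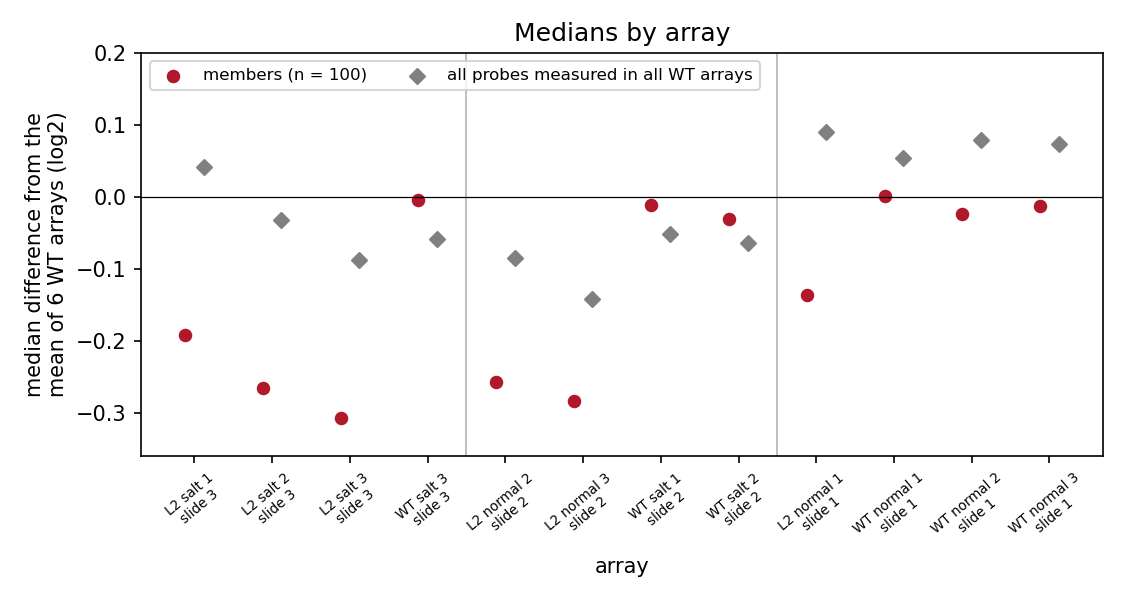
The vertical axis gives the median difference from the mean of the 6 WT arrays (log2), for the 100 members (circles) and for all eligible probes (diamonds), with the 12 arrays along the horizontal axis grouped by slide. The members lie below the diamonds on every L2 array. L2 normal 1 has the smallest member shift from the WT mean of the 6, while its diamond lies above 0.

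The SD of the members within groups had a median of 0.159 on the log2 scale, against 0.277 over the eligible probes. A margin between extreme values favours probes with a small spread, so the rule itself leads to a lower SD. The median WT level was -0.82 over the members and -0.15 over the eligible probes, which describes the brightness of the spots and not the abundance of the transcripts. The signal was well above background on all 6 L2 arrays in 87% of the members and in 90.6% of the eligible probes. Names of transcript assemblies, as opposed to single ESTs or sequences, made up 20% and 20.8%. On the array surface, 6% of the members and 10.5% of the eligible probes lay in the outer 5 columns on either side. A local floor was taken as the 10th percentile of the spot signals around each spot. For 5 members it differed more than 2-fold from the median floor of the array on at least 1 array. None of these 5 was among the first 12 members, and 1 was the member on FG638711.

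The response to salt within each line was the comparison that the rule did not use directly. It was tested with limma over 26312 probes, those with a signal well above background throughout 1 group or more, which included all 100 members. A probe was called when its p, adjusted by Benjamini-Hochberg, was below 0.05 and its change exceeded 2-fold. In WT 6.04% of the probes were called higher and 6.98% lower under salt stress than under normal conditions, and 0 members were called in either direction. In L2 0.0152% were called higher and 0.103% lower, and again 0 members. Within each line no slide held both conditions, so slide and salt could be told apart only through the arrays of the other line. With the slide as a block 0 probes were called in WT, while 43 were called higher and 6 lower in L2. For the difference of the responses, L2 minus WT, 0% of the probes and 0 members were called. At an unadjusted p below 0.05 there were 2 members against 42% of the probes in WT, 4 members against 16.7% in L2 and 3 members against 17.9% for the difference of the responses. The margin takes extreme values over both conditions, so the choice is not independent of the salt response, and nothing is read from the low counts.

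The salt changes of most members were small, which the choice favours, since the margin takes extreme values over both conditions. The median change, salt minus normal, was 0.00 in WT and -0.03 in L2 over the members, against -0.20 and -0.002 over all probes tested. Without regard to direction it was 0.0958 in WT and 0.110 in L2 over the members, against 0.460 and 0.264 over all probes tested. The lowest adjusted p from limma among the members was 0.0437 in WT, for A_95_P260156, which had a mean of -3.28 ± 0.15 under salt stress and -4.15 ± 0.07 under normal conditions (SD, n = 3 arrays each). This difference of 0.87, or 1.83-fold, stayed under the 2-fold limit, and its adjusted p was 0.85 when the slide was a term of the fit. In L2 the same probe had -4.92 ± 0.59 under salt stress and -4.52 ± 0.36 under normal conditions (SD, n = 3 arrays each), with no array under salt stress well above background. The difference of its responses is therefore not given, and the same holds for A_95_P281833. In A_95_P301998, detected on 2 of the 3 L2 salt arrays, the difference of the responses, L2 minus WT, was -1.05 with an adjusted p of 0.344 from limma.

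The limit at 100 members falls in a continuous series. The last members were A_95_P095478, A_95_P260426 and A_95_P204337, with margins of -0.133, -0.134 and -0.135, and the next probes outside were A_95_P088848, A_95_P296648 and A_95_P096438, with -0.136, -0.138 and -0.139. A_95_P204337 differed by -0.03 under salt stress and by -0.08 under normal conditions, less than A_95_P088848 outside the limit, which differed by -0.17 and by -0.30. The order by margin was therefore not the order by mean difference near the limit.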

How the data were processed

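The data are 12 one-colour arrays, 3 for each of L2 and WT under salt stress and normal conditions. Spot intensity was extracted by the authors with Agilent Feature Extraction (10.7.3.1 per the labels, 11.5.1.1 per the file headers), which subtracts background and writes a processed signal and flags. The deposited scanner intensity carries no normalization between arrays. In the deposited value table, which is on the log2 scale, the 75th percentile of each array had been subtracted. Flags for spots well above background were used as deposited.

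Members, levels and differences between L2 and WT come from the deposited log2 table. Tests used log2 of the processed signal scaled to the array's 75th percentile, without control and outlier spots, with spots of a probe averaged. Group means were fitted with limma 3.58.1 in R 4.3.3, with 8 residual degrees of freedom (6 with the slide as a block), and p-values were adjusted over all 26312 probes. The script was tested on simulated data. Figures were drawn with Python 3.11.15 and matplotlib 3.10.9.

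Detection differed between arrays, with 49.2% to 63.0% of the probes well above background, and the number of arrays limits the precision. Each replicate is described as a separate pool of plants, and L2 is 1 transgenic line, so p-values measure the spread between pools and not between lines. The members, the lists and the rule for naming probes were chosen with earlier results of these data known. The rule names the 12 widest margins, the ranks 98 to 103, probes sharing an accession, called members, and the 5 largest mean differences in each condition. Lists of gene functions and leaf markers were not used, as no descriptions were matched. Other backgrounds, scalings, filters, tests, blocks and numbers of members were tried, and each array was left out in turn.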

Additional observations from a re-analysis of the deposited data

How the results depend on the processing

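The membership depended on the scaling. Of the 100 members, 51 were kept with a normexp background, 53 with quantile normalization, 33 with median scaling, 43 with the 75th percentile taken over detected probes (those well above background on every array) and 3 when ranked by the smaller mean difference. Members without overlap, 14 as reported, numbered 6, 9, 7 and 8 under the first 4 of these settings. Over all eligible probes, those lower in L2 without overlap numbered 6, 10, 8 and 8 under the same settings. Leaving out 1 array kept 30 to 87 members and left 15 to 24 without overlap. Leaving out arrays can only keep or widen a margin, so the count without overlap could not fall below 14. The extremes of 30 and 24 were without L2 normal replicate 1, when 84 eligible probes, or 0.369%, had no overlap. Without L2 normal 3 and L2 salt 2, chosen after seeing the data, 20 members had no overlap. Eligible probes were not counted, so nothing is read.

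The median difference of the members between L2 and WT was negative under all settings tried. Every setting reuses the arrays on which the members were chosen as lower in L2, so nothing is read from this sign. Under salt stress it was -0.18 with a normexp background, -0.23 with median scaling, -0.34 with the 75th percentile over detected probes and -0.32 within slide 3, and -0.32 to -0.25 with 1 array left out. Under normal conditions it was -0.11 with the 75th percentile over detected probes and -0.13 within slide 1. The cause was not tested.

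For the salt response in WT, 1 member was called with the 75th percentile over detected probes, where 1897 of 26312 probes were called higher and 1397 lower. Without the fold limit 1 member was called. For the difference of the responses, the count of members with 1 array left out was 0 to 1, the 1 being without L2 normal replicate 1. Counts over all probes are not given for these last settings, so nothing is read from the single members. In L2, 0 members were called under every alternative run. The methods' t-test gave 15 members in WT and 4 in L2 at an unadjusted p under 0.05. The share over all probes at this limit is not given for this test, so nothing is read from these counts. With the 2-fold limit added the t-test gave 0 members in either line, against 4020 of 26312 probes in WT and 526 in L2. After Benjamini-Hochberg adjustment with the 2-fold limit it gave 0 members in either line, against 3351 probes in WT and 0 in L2.

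Replicate numbers did not pair the samples, as the deviations of same-numbered arrays correlated between -0.39 and 0.41. With the replicate number as a block, 0 members were called in any of the 3 comparisons, and over all probes 1610 were higher and 1872 lower in WT, 10 and 38 in L2, against 1589 and 1836 in WT and 4 and 27 in L2 without it. With the slide as a block, 0 were called in WT and 43 higher and 6 lower in L2. Over all probes, the calls in WT were 1735 higher and 1214 lower with quantile normalization, 1881 and 1401 with median scaling, 1897 and 1397 with the 75th percentile over detected probes, and 929 and 913 with a normexp background. In L2 they were 34 and 89, 44 and 40, 7 and 63, and 11 and 24 under the same settings. Without a filter on dim probes they were 1293 and 823 in WT and 0 and 1 in L2, and over probes detected on all arrays 1239 and 613 in WT and 16 and 27 in L2. Signal over background limits the dim members, whose order among L2 arrays under salt stress is not measured.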
